A study of Mus musculus with 9 samples.

Results

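The 10 genes studied encode the sensors of the unfolded protein response (UPR) and the transcription factors these sensors control, and were followed in mouse splenic B-lineage cells. They were taken by name, and all 10 were found among the 29995 genes of the table without immunoglobulin (Ig) genes. They comprise Ern1 and Xbp1 of the IRE1 arm, Atf6 and Atf6b of the ATF6 arm, Eif2ak3, Atf4, Ddit3 and Ppp1r15a of the PERK arm, and Creb3 and Creb3l2 of the CREB3 arm. All 10 passed the filter on low values, a TPM value (length-corrected transcript abundance on a fixed sum) of 1 or more in 3 or more libraries, which left 12892 genes to be tested.

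RNA was sequenced from 9 libraries, 3 per group, of cells sorted from the spleens of B6.Blimp1+/GFP mice. All animals were 12 weeks old and had received 50 µg of NP-LPS, a nitrophenyl hapten on bacterial lipopolysaccharide, in the peritoneum 4 days earlier. Every group therefore carried the GFP reporter in the Prdm1 locus, which encodes Blimp1, and the naive cells came from immunized mice. Naive B cells were NP-, B220+ and IgD high. Activated B cells, called NP+ B cells below, were NP+ and B220+ and lacked IgD, GFP and CD138. Plasma cells (PCs) were NP+, lacked IgD and carried GFP and CD138, with or without B220. Cells bearing CD4, CD8a, Ter-119 or F4-80 were gated out and every population was sorted in 2 rounds. The series describes 3 mice as its biological replicates, without saying which libraries share a mouse.

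The endoplasmic reticulum (ER) folds secreted and membrane proteins, and its membrane holds sensors that respond when unfolded protein builds up. IRE1, encoded by Ern1, cuts Xbp1 mRNA so that an active XBP1 factor is translated, ATF6 and its relatives of the CREB3 family are cut in the Golgi to release a transcription factor, and PERK, encoded by Eif2ak3, phosphorylates the translation factor eIF2α, which slows translation but favours that of Atf4 mRNA. ATF4 and its target CHOP (Ddit3) switch on amino acid and stress genes, and GADD34 (Ppp1r15a) restores translation. Plasma cells are the classical cell type in which XBP1 is required for the secretory apparatus. Cleavage, phosphorylation and translation are not seen in mRNA levels, so the values below are abundances of transcripts only.

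Libraries held 28958719 to 39341493 estimated reads, and 20189947 to 38602257 without Ig genes, with PC libraries at 20189947 to 22137412. The lowest member level, Creb3l2 in an NP+ B cell library, rested on about 162 estimated reads. The lowest count of a member was about 134 estimated reads, for Ern1 in a naive B cell library, so that no member was near a floor of 3 counts. The markers of the sort went with the labels. The summed TPM of 4 plasma cell markers (Sdc1, Prdm1, Irf4 and Tnfrsf17) was 1094 to 1375 in PCs and at most 40.5 elsewhere, and that of 6 naive B cell markers was 3224 to 3438 in naive B cells, 2328 to 2677 in NP+ B cells and 167 to 176 in PCs. One PC library stood apart. PC replicate 3 held hepatocyte transcripts, with a summed TPM of 4549 over Alb, Apoa1, Apoa2, Ttr and Fgb against at most 25.8 in the other libraries, and its Lyz2 was at 48.2 against at most 11.6 elsewhere. Of the macrophage markers, Csf1r was at most 2.31 in all libraries while Cd68 was 44.98 to 67.6 in NP+ B cells, 28.8 to 35.6 in PCs and 3.88 to 4.05 in naive B cells, and Itgam was at least 12.3 in NP+ B cells and at most 4.94 in PCs and 2.73 in naive B cells. The 6 T cell markers summed to 56.1 to 64.1 in naive B cells, 24.3 to 58.4 in NP+ B cells and 4.53 to 7.20 in PCs. Lck made up nearly all of it in both B cell groups but was at 0.264 to 0.995 in PCs, with Cd3e at 1.15 or less in all libraries. The neutrophil markers S100a8 and S100a9 were at 24.7 and 23.9 in NP+ B cell replicate 2 and at 18.7 and 11.4 in PC replicate 3. The other neutrophil markers listed did not go with them. Ly6g, Ngp and Camp were at 0.266, 0.378 and 0.0602 in the former library and at 1.73, 0 and 0.986 in the latter. The part of these transcripts in the members' levels was not tested. Leaving out PC replicate 3 added 1 call among the members, Ppp1r15a against NP+ B cells, and took none away.

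A gene was called when its Benjamini-Hochberg adjusted p in limma-voom was under 0.05 and its fold change over 2. Between NP+ and naive B cells 0 of the 10 members were called, where 18.5% of all genes tested were (8.13% higher and 10.4% lower). An unadjusted limma p under 0.05 was reached by 6 members, where 51.2% of all genes reached it, and an adjusted one by 4, where 42.1% did. Between PCs and naive B cells 6 members were called, all of them higher in PCs, where 37.8% of all genes were called (11.4% higher and 26.3% lower). Between PCs and NP+ B cells 7 were called, all higher, where 32.2% of all genes were called (9.93% higher and 22.3% lower). These PC comparisons share the PC libraries. The median log2 change of the 10 members was -0.39, 1.13 and 1.54 in the order of these comparisons, and that of all genes tested -0.16, -0.47 and -0.30. The called members were both genes of the IRE1 arm, both of the ATF6 arm and both of the CREB3 arm, with Atf4 of the PERK arm added against NP+ B cells.

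**Figure D1:**
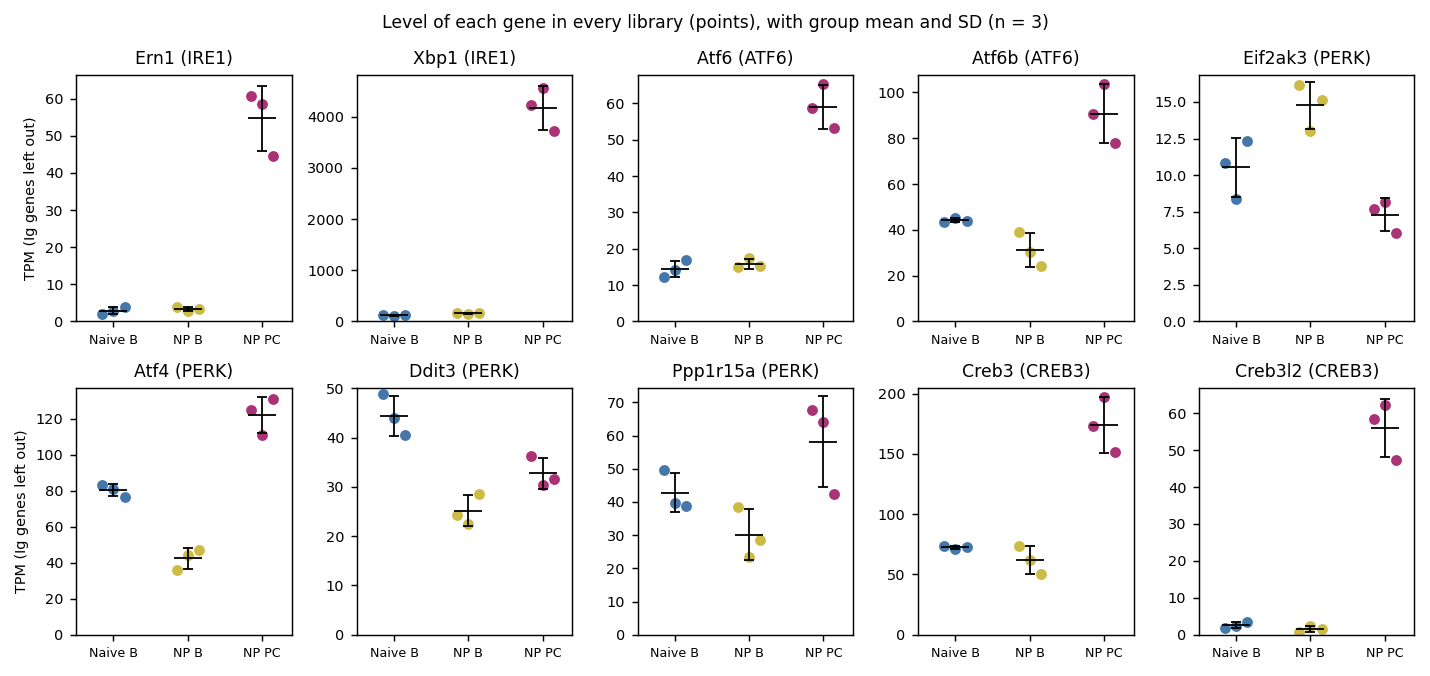
TPM of the 10 genes (vertical axes, linear and starting at 0) in every library of naive B cells, NP+ B cells and PCs, with the bar at the group mean and the whiskers at 1 SD (n = 3). Ern1, Xbp1, Atf6, Atf6b, Atf4, Creb3 and Creb3l2 had all 3 PC libraries above all others, whereas Eif2ak3 had them below all others.

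Several of the directions changed with the scale. TPM is a share of a fixed sum, and Ig genes took 38.6 to 43.6% of TPM in PCs against 5.27 to 6.28% elsewhere in the table that keeps them, where rows of genes not listed took a further 30.01 to 32.8% in PCs. The authors' table without Ig genes, used here, compares each gene with the rest of the non-Ig mRNA. With Ig genes kept and the columns scaled to their sum, all genes shifted by a median log2 change of -1.40 from naive and of -1.27 from NP+ B cells to PCs, and with median-of-ratios scaling they shifted to 0.02 and 0.08. With Ig genes kept on the former scale 4.47% of all genes were called higher and 64.5% lower in PCs against naive cells, and 3.41% higher and 59.7% lower against NP+ B cells. On the TPM scale as deposited these shares were 3.03% and 77.9%, and 2.6% and 72.3%. With median-of-ratios scaling they were 18.2% higher and 14.1% lower against naive cells, 15.7% and 13.9% against NP+ B cells, and 9.76% and 7.93% between NP+ and naive B cells. Counts called lower with Ig genes kept are read against these shares. Ern1, Xbp1 and Creb3l2 were called higher in PCs in both comparisons under all of these scalings. Atf6, Atf6b and Creb3 were not called with Ig genes kept, and Eif2ak3 was called lower in both comparisons. As in any bulk sample, fewer cells expressing a gene and less of its RNA per cell cannot be told apart.

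**Figure D2:**
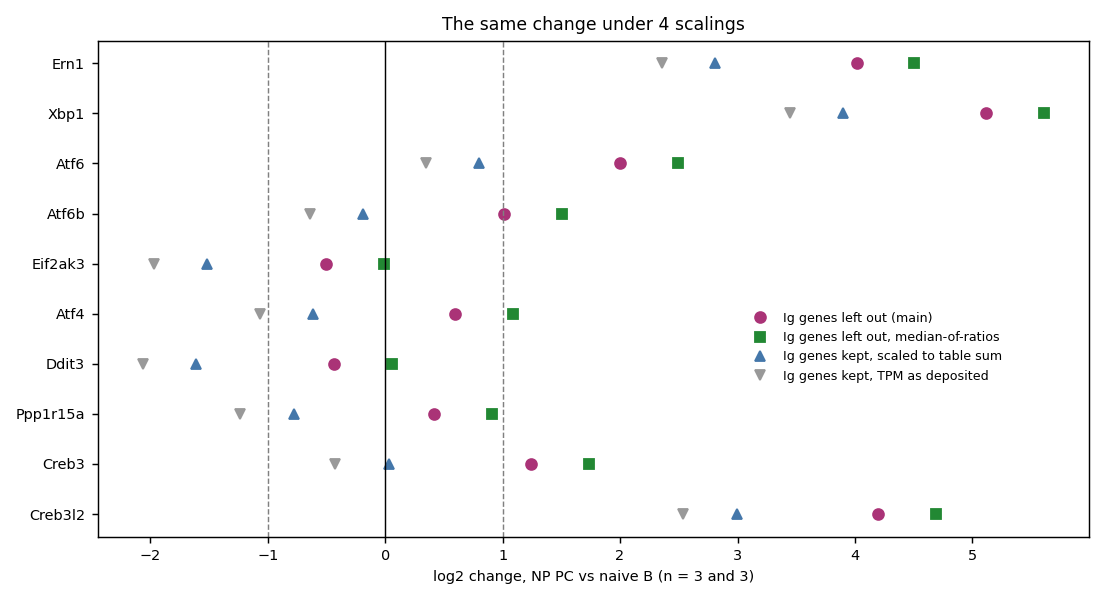
Log2 change of the 10 genes from naive B cells to PCs (horizontal axis, n = 3 and 3, dashed lines at 2-fold) on 4 scales that differ in whether Ig genes are kept and in how libraries are scaled. Ern1, Xbp1 and Creb3l2 lie beyond 2-fold on all 4, and Atf6b, Atf4, Ddit3, Ppp1r15a and Creb3 lie on both sides of 0.

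In the IRE1 arm, the sensor and its target rose together in PCs. Ern1 (chr11:106394650-106487852, minus strand, mm10) had a TPM of 2.10, 2.93 and 3.79 in naive B cells, 3.89, 2.83 and 3.49 in NP+ B cells and 60.8, 58.6 and 44.6 in PCs. Every PC library lay above every other library, and the other groups overlapped. The log2 change in PCs was 4.01 ± 0.25 (SE, limma adjusted p = 1.73e-07), a 16.2-fold rise, against naive B cells and 3.82 ± 0.24 (limma adjusted p = 2.51e-07) against NP+ B cells. Between NP+ and naive B cells it was 0.19, with a 95% interval from -0.49 to 0.88 (limma adjusted p = 0.638). Xbp1 (chr11:5520659-5525893, plus strand) had a TPM of 118, 111 and 127 in naive B cells, 157, 142 and 168 in NP+ B cells and 4239.9, 4564 and 3717 in PCs, so that no groups overlapped. Against naive B cells its rise was the largest of the 10 genes, with a log2 change of 5.12 ± 0.11 (limma adjusted p = 1.02e-10) or 34.7-fold against naive B cells and of 4.74 ± 0.10 (limma adjusted p = 1.74e-10) against NP+ B cells. In rank of TPM among the 12892 genes tested, Xbp1 stood between 976 and 1235 in the 6 B cell libraries and between 22 and 29 in the PC libraries. Between NP+ and naive B cells the log2 change of Xbp1 was 0.38 ± 0.12 (limma adjusted p = 0.028), under 2-fold and thus not called.

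The Xbp1 values sum over the uncut and the cut mRNA. In GENCODE M21 all 3 protein-coding Xbp1 models hold the 26 bases between the sites where IRE1 cuts, found here as a pair of the motif CNGCAGN at that spacing, and none is the spliced form. The stretch is shown because its removal is what activates XBP1, and the deposited gene values cannot tell whether it was present. It lies in exon 4 of transcript Xbp1-201, at chr11:5524279-5524304 on the plus strand of GRCm38, with the 26 bases in capitals and 30 coding bases in lower case on each side.
Xbp1 mRNA: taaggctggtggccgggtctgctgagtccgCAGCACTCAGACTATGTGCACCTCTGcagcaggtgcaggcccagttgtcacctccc

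The ratio of Xbp1 to Ern1 TPM was 33.4 to 56.4 in naive B cells, 40.5 to 50.3 in NP+ B cells and 69.8 to 83.3 in PCs. All PC libraries lay above the others, by a mean of 0.89 on the log2 scale against naive B cells (two-sided exact permutation p = 0.1, 0.162 after adjustment over 21 ratio tests). With 3 libraries against 3 an exact p cannot fall below 0.1, which holds for every ratio given here. The ratio does not depend on how a library is scaled.

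Of 7 genes around IRE1, 6 were tested. Between NP+ and naive B cells 0 were called in limma, where 18.5% of all genes were, or 1 (Zbtb8os, 1.10 higher) with median-of-ratios scaling. Against naive B cells PCs had 1 higher and 3 lower, and the same numbers against NP+ B cells, with medians of -0.83 and -0.82. Of all genes, 11.4% and 9.93% were called higher and 26.3% and 22.3% lower, with medians of -0.47 and -0.30. Tmbim6, which encodes the ER membrane protein BI-1, rose from 278 to 284 TPM in naive B cells to 526 to 793 in PCs (log2 change 1.28, limma adjusted p = 2.23e-05). Traf2, the adaptor that links IRE1 to kinase signalling, fell by 1.59 on the log2 scale against naive B cells (limma adjusted p = 8.53e-05), from 40.9 to 52.1 TPM to 14.3 to 15.8. Rtcb, the ligase that joins the cut Xbp1 mRNA, fell by 1.21 against naive B cells and by 1.54 against NP+ B cells, to 46.9 to 64.6 TPM in PCs. The third lower gene was Bloc1s1, a known substrate of IRE1's nuclease, named after its values were seen, which fell by 1.20 and 1.04. With median-of-ratios scaling 1 gene of the list was called lower in each PC comparison, where 14.1% and 13.9% of all genes were. Keeping Ig genes, with columns scaled to their sum, gave 4 lower against naive and 5 lower against NP+ B cells, and 0 higher in either, where 64.5% and 59.7% of all genes were lower. The log2 change of Tmbim6 from naive B cells was then 0.064 (limma adjusted p = 0.654), and its mean TPM in the full table went from 263 to 203. Ern2, the paralog of Ern1, was at 0.382 TPM or less in all libraries and was not tested.

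The genes listed as XBP1 targets, which serve translocation, folding and disposal of ER proteins, rose in PCs without exception. All 10 were called higher in PCs in both comparisons, where 11.4% and 9.93% of all genes were. Their median log2 change was 3.36 against naive B cells and 2.87 against NP+ B cells. Between NP+ and naive B cells 0 of 10 were called in limma (median 0.43), where 18.5% of all genes were. That count was 1 without PC replicate 3 and 1 with median-of-ratios scaling. With Ig genes kept and columns scaled to their sum, 9 and 8 of the 10 were still called higher in PCs. On the deposited TPM scale these counts were 8 and 7. Edem1, which helps to dispose of misfolded glycoproteins, had the largest rise, from 18.3 to 25.1 TPM in naive B cells to 953, 878 and 345 in PCs (log2 change 4.89 ± 0.44, limma adjusted p = 3.54e-06), with PC replicate 3 the lowest. Dnajc3, a co-chaperone that also inhibits PERK, rose from 17.5 to 24.1 TPM to 370.3 to 404 (log2 change 4.20 ± 0.13, limma adjusted p = 1.19e-09). In NP+ B cells Edem1 stood at 38.7 to 50.8 TPM, above all naive libraries, with a log2 change of 1.04 that did not pass (limma adjusted p = 0.118).

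In the ATF6 arm both paralogs rose in PCs, but their ratio shifted. Atf6 (chr1:170704674-170867771, minus strand) had a TPM of 12.3, 14.0 and 16.9 in naive B cells, 15.04, 17.4 and 15.2 in NP+ B cells and 58.6, 65.3 and 53.1 in PCs. The PC libraries were separate from the rest and the B cell groups overlapped. Its log2 change in PCs was 2.00 ± 0.15 (limma adjusted p = 9.67e-07) against naive B cells and 1.86 ± 0.15 (limma adjusted p = 1.80e-06) against NP+ B cells. Between the B cell groups it was 0.14, with a 95% interval from -0.25 to 0.52. Atf6b (chr17:34647146-34655074, plus strand), whose product is the weaker activator of the pair, had a TPM of 43.6, 45.1 and 43.9 in naive B cells, 38.9, 30.4 and 24.04 in NP+ B cells and 90.7, 104 and 77.8 in PCs. No groups overlapped, with NP+ B cells lowest. Its log2 change in PCs was 1.01 ± 0.16 (limma adjusted p = 0.000253) against naive B cells, just past 2-fold, and 1.55 ± 0.17 (limma adjusted p = 1.92e-05) against NP+ B cells. Without PC replicate 2 the first of these was 0.91 and no longer called. Atf6b differed between NP+ and naive B cells by -0.54 ± 0.18 (limma adjusted p = 0.0342), under 2-fold.

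The values of the ATF6 pair shifted in the table that keeps Ig genes. Mean Atf6 TPM in that table in naive, NP+ B cells and PCs was 13.5 ± 2.15, 14.2 ± 1.25 and 17.2 ± 1.13 (SD, n = 3), and mean Atf6b TPM was 41.4 ± 0.710, 27.8 ± 6.33 and 26.4 ± 2.80. The log2 change of Atf6b from naive B cells to PCs was then -0.19 (limma adjusted p = 0.269) when columns were scaled to their sum and -0.64 on the deposited TPM scale. The ratio of Atf6 to Atf6b, which is free of this choice, was 0.283 to 0.384 in naive B cells, 0.387 to 0.633 in NP+ B cells and 0.629 to 0.683 in PCs. It was higher in all libraries of both NP+ groups than in any naive library (mean log2 difference 0.69 and 1.01, exact permutation p = 0.1 and adjusted p = 0.162 for each), and the NP+ groups overlapped (0.33, exact permutation p = 0.2).

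Of 6 genes that process or accompany ATF6, 1 rose and 1 fell from naive B cells to PCs. Of all genes, 11.4% were called higher and 26.3% lower. Wfs1, an ER membrane protein that restrains ATF6, had a TPM of 3.64 to 4.05 in naive B cells, 0.581 to 2.07 in NP+ B cells and 16.1 to 21.0 in PCs. In NP+ B cells its log2 change was -1.42 (limma adjusted p = 0.00578) and rose in PCs by 2.12 against naive and by 3.53 against NP+ B cells. Nfya, a subunit of the NF-Y factor that binds DNA beside ATF6, fell by 1.05 from naive B cells to PCs (limma adjusted p = 0.00762), a call not made with median-of-ratios scaling. Neither protease that cuts ATF6 was called in any comparison on the table without Ig genes, with Mbtps1 at 24.4 to 42.0 TPM and Mbtps2 at 7.50 to 18.3. Keeping Ig genes and scaling columns to their sum gave 5 of the 6 genes called lower and 0 higher in PCs against naive B cells, among them Mbtps1 (-1.36) and Mbtps2 (-1.86), and 3 lower and 1 higher against NP+ B cells, where 64.5% and 59.7% of all genes were lower.

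All 10 genes listed as ATF6 targets were called higher in PCs in both comparisons, where 11.4% and 9.93% of all genes were. Their medians were 3.90 and 3.51, and with Ig genes kept 9 of 10 were called higher. Which factor raised a gene was not tested, here or for the other lists, and the lists need not be specific to the factor named. The study reported that Hyou1, listed here, needed Xbp1 for full expression in cultured CD138+ cells. Creld2, an ER protein induced by unfolded protein, rose from 50.1 to 54.8 TPM in naive B cells to 3136 to 3585 in PCs (log2 change 5.99 ± 0.12, limma adjusted p = 9.44e-11). Hsp90b1, the chaperone GRP94, rose from 196 to 264 TPM to 8630.0 to 9544 (5.33 ± 0.11, limma adjusted p = 1.02e-10). Hspa5, the chaperone BiP that holds all 3 classical sensors inactive, rose from 488 to 554 TPM to 4209.7 to 4894 (3.18 ± 0.10). In NP+ against naive B cells the list went both ways, with 2 called higher and 1 lower, or 3 and 1 with median-of-ratios scaling. Of all genes, 8.13% were called higher and 10.4% lower, or 9.76% and 7.93% with that scaling. Sdf2l1 and Creld2 rose by 1.36 and 1.07 on the log2 scale, and Hyou1, an ER chaperone of the HSP110 family, fell by 1.46 (limma adjusted p = 0.00167) from 20.9 to 24.3 TPM to 4.85 to 11.7.

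The best known binding site for ATF6 with NF-Y is the ER stress response element (ERSE), in which CCAAT and CCACG stand 9 bases apart. RefSeq promoter windows of GRCm38.p6, from 250 bases before to 50 bases after a gene's start, were searched on both strands, and 39 of 32851 windows (0.119%) held it. Of the 8 ATF6 target genes with a window 4 held it, and of the 9 XBP1 target genes 2. All listed targets of ATF6 and XBP1 rose in PCs, with or without the element. The stretches of several that held it are shown, with the element in capitals on the strand of the gene. Calr also held it, and Hsp90b1 held another, reversed, and these are not shown.
Hspa5, chr2:34772013-34772055, plus strand: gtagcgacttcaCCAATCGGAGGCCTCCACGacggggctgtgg
Hsp90b1, chr10:86705626-86705668, minus strand: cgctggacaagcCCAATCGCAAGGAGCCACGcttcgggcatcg
Creld2, chr15:88819508-88819550, plus strand, element reversed: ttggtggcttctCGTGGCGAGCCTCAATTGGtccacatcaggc
Dnajc3, chr14:118937815-118937857, plus strand: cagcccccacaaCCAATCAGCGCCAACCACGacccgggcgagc
Pdia6, chr12:17266479-17266521, plus strand: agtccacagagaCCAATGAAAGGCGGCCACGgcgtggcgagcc

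None of the 9 members with a window (Atf6 had none) held the ERSE, the shorter ERSE-II (ATTGG, any base and CCACG, in 0.0365% of all windows), the UPR element TGACGTGG (0.676%) or the element bound by C/EBP and ATF4 (TGATGNAAT, 0.965%). The core CCACG, searched after these results were seen and contained in the first 3 of these elements on one strand or the other, was in the windows of 4 of the 9 members (Ern1, Atf4, Ppp1r15a and Creb3) and in 32.8% of all windows. Of the target lists, 8 of 8 ATF6 targets held it, 8 of 9 XBP1 targets, 3 of 3 CREB3 family targets and 11 of 15 ATF4 and CHOP targets. Counts for members and lists are of genes, which can have several windows, whereas the shares here and above are of windows. The counts and shares are therefore not in the same unit. These matches describe letters in a window and say nothing of binding.

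The PERK arm did not move as a block. Eif2ak3 (chr6:70844515-70905245, plus strand), the sensor, had a TPM of 10.9, 8.38 and 12.3 in naive B cells, 16.1, 13.0 and 15.1 in NP+ B cells and 7.69, 8.16 and 6.02 in PCs. The groups did not overlap, with NP+ B cells highest and PCs lowest, whereas Ern1 and Atf6 were highest in PCs. Its log2 change was 0.47 ± 0.19 (limma adjusted p = 0.0641) in NP+ against naive B cells, -0.50 ± 0.21 (limma adjusted p = 0.0567) from naive B cells to PCs and -0.97 ± 0.20 (limma adjusted p = 0.00169) from NP+ B cells to PCs. The last was just short of 2-fold and so not called, but it was called without NP+ B cell replicate 2 (-1.06), PC replicate 1 (-1.02) or PC replicate 2 (-1.06), and with an offset of 0.1 without weights (-1.01). It was smaller without PC replicate 3 (-0.85), with median-of-ratios scaling (-0.59) and with quantile normalization (-0.49). With quantile normalization the change from naive B cells to PCs was 0.08, and with Ig genes kept it was -1.52 and called. On that last scale the median of all genes was -1.40, and 64.5% of them were called lower. The ratio of Ern1 to Eif2ak3 was 0.193 to 0.350 in naive B cells, 0.218 to 0.241 in NP+ B cells and 7.18 to 7.90 in PCs, and that of Atf6 to Eif2ak3 was 1.14 to 1.67, 0.931 to 1.34 and 7.62 to 8.83. PC libraries were separate from both B cell groups in these ratios, by 4.77 and 5.03 on the log2 scale for Ern1 and by 2.57 and 2.92 for Atf6 (exact permutation p = 0.1 for each, the smallest possible, adjusted p = 0.162).

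Atf4 (chr15:80255184-80257541, plus strand) had a TPM of 83.3, 81.1 and 76.8 in naive B cells, 35.9, 44.2 and 47.4 in NP+ B cells and 125, 111 and 131 in PCs. No groups overlapped, and NP+ B cells were lowest. It rose in PCs against NP+ B cells by 1.52 ± 0.12 on the log2 scale (limma adjusted p = 1.95e-06). The other differences were significant but under 2-fold, -0.93 ± 0.13 (limma adjusted p = 0.000263) in NP+ against naive B cells and 0.59 ± 0.11 (limma adjusted p = 0.000969) from naive B cells to PCs. The first of these was called with quantile normalization (-1.07) and without NP+ B cell replicate 3 (-1.01), and the second with median-of-ratios scaling (1.09). The change from naive B cells to PCs with Ig genes kept was -0.62 (limma adjusted p = 0.00166) and that against NP+ B cells was 0.32 and not called. The medians of all genes were then -1.40 and -1.27.

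Ddit3 (chr10:127290774-127296288, plus strand), which encodes CHOP, had a TPM of 48.8, 43.9 and 40.5 in naive B cells, 24.2, 22.5 and 28.6 in NP+ B cells and 36.2, 30.3 and 31.7 in PCs. The groups were again separate, with naive B cells highest, but no difference reached 2-fold. The log2 change was -0.82 ± 0.14 (limma adjusted p = 0.00103) in NP+ B cells and -0.44 ± 0.13 (limma adjusted p = 0.0152) from naive B cells to PCs, and 0.38 ± 0.14 (limma adjusted p = 0.0436) between PCs and NP+ B cells, the last with an adjusted p of 0.0604 in limma without PC replicate 3. With median-of-ratios scaling the change from naive B cells to PCs was 0.06. With Ig genes kept it was -1.61, where the median of all genes was -1.40. GENCODE M21 gives the symbol Ddit3 to another, overlapping gene on the same strand and places Mars and Gm4189 opposite it, and values summed by symbol do not separate the former. The ratio of Ddit3 to Atf4 was 0.528 to 0.585 in naive B cells, 0.510 to 0.674 in NP+ B cells and 0.242 to 0.290 in PCs. It was lower in all PC libraries than in any other, with a mean log2 difference of -1.04 against naive B cells and of -1.15 against NP+ B cells (exact permutation p = 0.1, adjusted p = 0.162).

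Ppp1r15a (chr7:45522916-45526268, minus strand), which encodes the phosphatase subunit GADD34, had a TPM of 49.6, 39.8 and 38.9 in naive B cells, 38.4, 23.4 and 28.7 in NP+ B cells and 67.8, 64.2 and 42.4 in PCs. PC replicate 3 lay within the naive range, and the NP+ B cells lay below both other groups. No difference was called. The log2 change in PCs was 0.41 ± 0.21 (limma adjusted p = 0.113) against naive B cells, or 0.62 (limma adjusted p = 0.0133) without PC replicate 3, and 0.94 ± 0.22 (limma adjusted p = 0.0041) against NP+ B cells, and it was -0.53 ± 0.23 (limma adjusted p = 0.085) between the B cell groups. The change against NP+ B cells was called without PC replicate 3 (1.15) or NP+ B cell replicate 1 (1.12), with median-of-ratios scaling (1.32) or quantile normalization (1.28), and on the deposited log2 values or estimated counts (1.01 each). With Ig genes kept it was -0.24. Its constitutive paralog Ppp1r15b had a TPM of 29.8 to 37.6, 15.4 to 21.0 and 20.03 to 33.6. The ratio of the paralogs was 1.03 to 1.53 in naive B cells, 1.35 to 2.50 in NP+ B cells and 1.91 to 2.85 in PCs, and PCs exceeded all naive libraries (mean log2 difference 0.82, exact permutation p = 0.1, adjusted p = 0.162).

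At a lower threshold chosen after these results were known, which the study also used for a display of these samples, an adjusted p under 0.05 with a log2 change of at least 0.5, 3 members were lower in NP+ than in naive B cells (Atf4, Ddit3 and Atf6b), where 20.9% of all genes were, and 0 were higher, where 15.7% were. At that threshold PCs had 7 members higher than naive B cells and 0 lower, against 16.5% and 39.7% of all genes, and 8 higher and 1 lower (Eif2ak3) than NP+ B cells, against 14.2% and 35.9%. Of the target lists, NP+ B cells had 2 of 10 XBP1 targets higher at that threshold (Ssr1, 0.93, and Sec61b, 0.78) and 0 lower than naive B cells, 5 of 10 ATF6 targets higher and 2 lower, 3 of 13 ATF4 and CHOP targets higher and 3 lower, and 1 of 3 CREB3 family targets higher and 0 lower. The groups were free of overlap for 6, 9 and 10 of the members in the 3 comparisons, where 55.9%, 69.7% and 58.2% of all genes tested were.

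**Figure D3:**
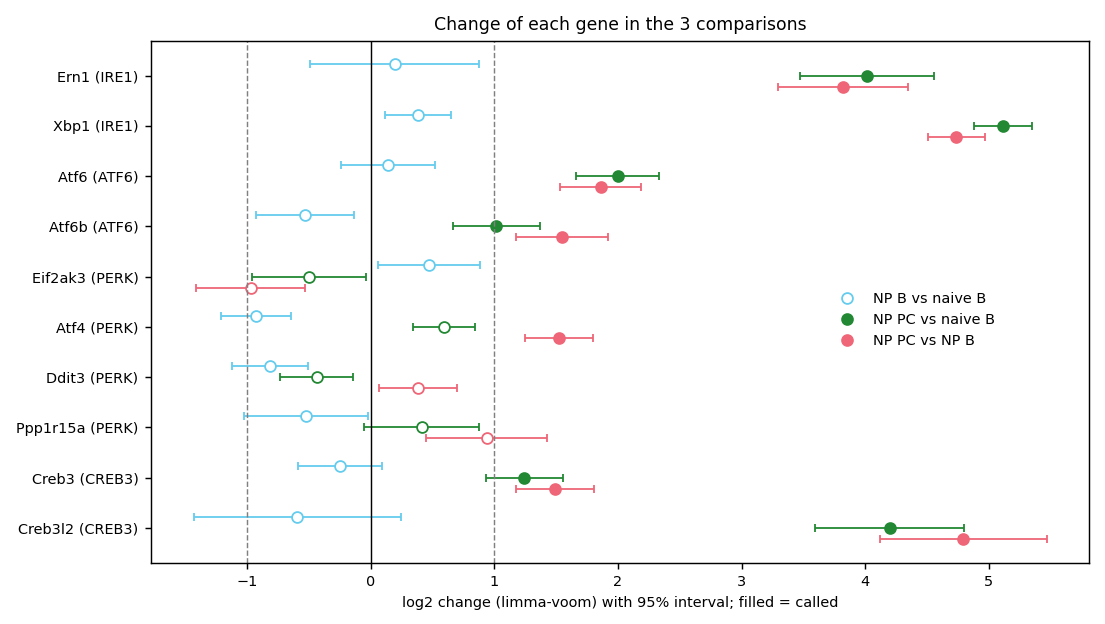
Log2 change of each gene (horizontal axis, limma-voom on TPM without Ig genes) in 3 comparisons of 3 libraries against 3, with 95% intervals, dashed lines at 2-fold and filled points for called genes. The IRE1, ATF6 and CREB3 genes lie to the right in both PC comparisons, and of the PERK genes only Atf4 against NP+ B cells is called.

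Of 11 genes around PERK, 10 were not called between NP+ and naive B cells, 10 not between PCs and naive B cells, and 11 not between PCs and NP+ B cells. Of all genes, 18.5%, 37.8% and 32.2% were called in these comparisons. Eif2s1, the eIF2α subunit that PERK phosphorylates, rose in NP+ B cells by 1.12 ± 0.15 (limma adjusted p = 0.000191), from 45.9 to 60.6 TPM to 95.5 to 123, and stood at 53.6 to 66.8 in PCs. Eif2ak4, the kinase GCN2 that senses amino acid shortage, fell by 1.17 from naive B cells to PCs (limma adjusted p = 0.000615), from 10.2 to 10.5 TPM to 3.14 to 5.67, a call lost without PC replicate 3 and with median-of-ratios scaling. The remaining eIF2α kinases were not called, with Eif2ak1, the haem-regulated kinase, at 37.7 to 50.3 TPM and Eif2ak2, the kinase PKR that senses double-stranded RNA, at 12.7 to 20.5 over all libraries. With Ig genes kept 8 of the 11 were called lower in each PC comparison, where 64.5% and 59.7% of all genes were. With median-of-ratios scaling 1 was called higher and 0 lower in each, where 18.2% and 15.7% of all genes were higher.

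The genes listed as targets of ATF4 and CHOP were split. Of 18, 13 were tested. In NP+ against naive B cells 3 were called higher and 2 lower, and from naive B cells to PCs 4 higher and 1 lower. In PCs against NP+ B cells 4 were higher and 3 lower. The medians were 0.27, 0.57 and 0.62. In the same order 8.13%, 11.4% and 9.93% of all genes were called higher and 10.4%, 26.3% and 22.3% lower. Without PC replicate 3 the PC counts were 5 higher and 2 lower, and 6 higher and 2 lower. Asns, which makes asparagine, rose at each step, from 0.600 to 1.99 TPM in naive B cells to 8.57 to 14.5 in NP+ B cells (log2 change 2.79, limma adjusted p = 0.000342) and 33.5 to 48.9 in PCs (1.66 against NP+ B cells, limma adjusted p = 0.000154). Mthfd2, of mitochondrial one-carbon metabolism, rose by 1.74 in NP+ B cells and fell by 1.17 in PCs against NP+ B cells. Slc3a2, the shared heavy chain of several amino acid transporters, was 2.57 higher on the log2 scale in PCs than in NP+ B cells (limma adjusted p = 2.05e-08). Chac1, which degrades glutathione, rose in PCs by 2.71 against naive B cells, but only to 8.69, 4.20 and 2.60 TPM. Slc7a11, the cystine transporter, and Tnfrsf10b, a death receptor, fell in NP+ B cells by 1.48 and 1.09. With median-of-ratios scaling 1 gene of the list was called lower there, in place of 2, and 3 were called higher. Ddit4, an inhibitor of mTORC1, fell by 2.28 from naive B cells to PCs (limma adjusted p = 2.11e-05), from 6.40 to 9.42 TPM to 1.04 to 1.48. Keeping Ig genes, which left 12 to be tested, gave medians of -0.39 and -0.57 in the PC comparisons, with 2 higher and 5 lower against naive and 1 higher and 5 lower against NP+ B cells, where 64.5% and 59.7% of all genes were lower. Median-of-ratios scaling gave 7 higher and 1 lower, and 6 higher and 1 lower, in these PC comparisons. On that scale 18.2% and 15.7% of all genes were higher and 14.1% and 13.9% lower.

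**Figure D4:**
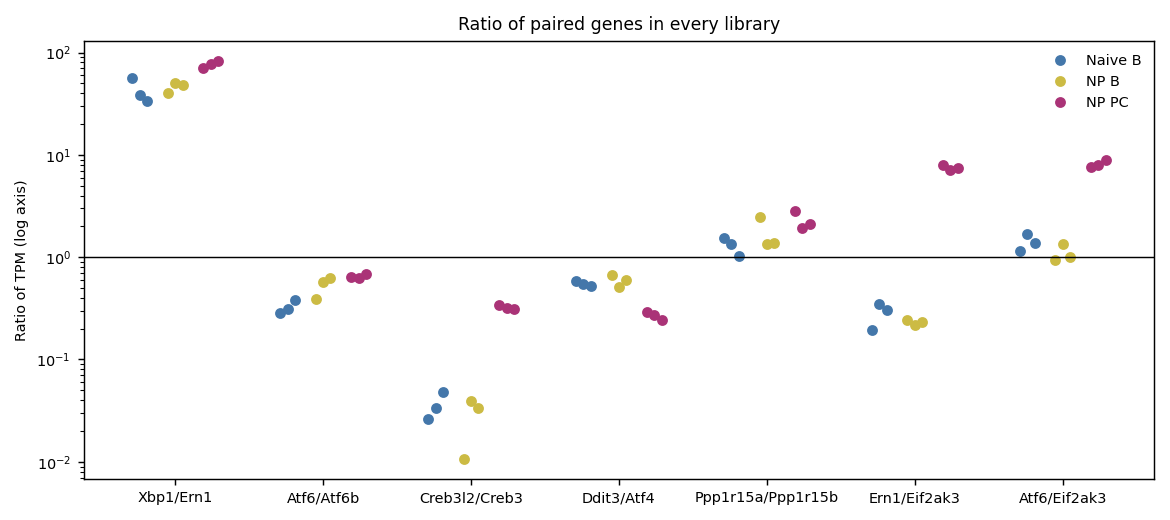
Ratio of the TPM of paired genes (log axis) in every library of the 3 groups, a measure that does not change with the scaling of a library. The Ern1/Eif2ak3, Atf6/Eif2ak3 and Creb3l2/Creb3 ratios of the 3 PC libraries lie above those of all B cell libraries, and the Ddit3/Atf4 ratios lie below.

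In the CREB3 arm both genes rose in PCs in both comparisons. Creb3l2 (chr6:37327255-37442146, minus strand), whose product BBF2H7 drives genes of ER to Golgi transport in secretory cells such as chondrocytes, had a TPM of 1.94, 2.38 and 3.51 in naive B cells, 0.784, 2.46 and 1.68 in NP+ B cells and 58.3, 62.3 and 47.3 in PCs. PC libraries were far above the rest and the B cell groups overlapped. Its log2 change in PCs was 4.20 ± 0.27 (limma adjusted p = 2.79e-07) or 18.4-fold against naive B cells and 4.79 ± 0.31 (limma adjusted p = 3.07e-07) against NP+ B cells, and it was -0.60 with a 95% interval from -1.43 to 0.24 between the B cell groups. The first was 2.99 with Ig genes kept. Creb3 (chr4:43562332-43567060, plus strand), also known as Luman, had a TPM of 73.8, 71.2 and 72.8 in naive B cells, 73.4, 62.2 and 50.4 in NP+ B cells and 173, 197 and 151.5 in PCs. Here too PCs were separate and the B cell groups overlapped. Its log2 change in PCs was 1.24 ± 0.14 (limma adjusted p = 2.08e-05) against naive B cells and 1.49 ± 0.14 (limma adjusted p = 7.48e-06) against NP+ B cells. These were, with Ig genes kept, 0.03 and 0.29 with scaled columns, and -0.42 and -0.12 on the deposited TPM scale, none of them called. Creb3 overlaps Tln1 and Gba2 on the opposite strand in GENCODE M21. The ratio of Creb3l2 to Creb3 was 0.0263 to 0.0483 in naive B cells, 0.0107 to 0.0395 in NP+ B cells and 0.312 to 0.337 in PCs, a log2 difference of 3.20 and 3.73 for PCs (exact permutation p = 0.1, adjusted p = 0.162).

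Of 6 relatives and partners of CREB3, 4 were tested. Creb3l1, which encodes OASIS, was called higher in PCs when compared with naive cells (log2 change 1.29, limma adjusted p = 0.00498), but at 1.43 to 2.29 TPM. Its PC libraries alone were enough to pass the filter of 1 TPM in 3 libraries, and it was not tested with Ig genes kept. This call is therefore given as a description only. Crebzf and Crebrf, whose products bind or destabilise CREB3 family factors, fell by 1.52 and 1.33 against naive B cells, of which 1 was called lower without PC replicate 3 and 0 with median-of-ratios scaling. None of the 4 was called between PCs and NP+ B cells or between the B cell groups in limma, where 32.2% and 18.5% of all genes were. Median-of-ratios scaling gave 1 call, Creb3l1 (1.00), higher in PCs than in NP+ B cells. Keeping Ig genes left 3 of the list to be tested, Crebzf, Crebrf and Hcfc1, and all 3 were called lower in both PC comparisons, with medians of -2.19 and -1.62, where 64.5% and 59.7% of all genes were lower. Creb3l4 was at 0.501 TPM or less in all libraries, and Creb3l3, the liver-enriched member, was at 2.27 or less in all but PC replicate 3, the library with hepatocyte transcripts, where it was 7.61. All 3 listed targets of the family, which serve transport between ER and Golgi, rose in PCs in both comparisons, where 11.4% and 9.93% of all genes did. With Ig genes kept 1 of them was still called. Sec24d, a COPII coat subunit, was the most changed, from 0.536 to 1.60 TPM in naive B cells to 2.27 to 3.71 in NP+ B cells (log2 change 1.23, limma adjusted p = 0.018) and 124 to 153 in PCs (log2 change from naive B cells 6.51, limma adjusted p = 1.73e-08). Arf4, a small GTPase of the Golgi, rose from 173 to 195 TPM to 789.8 to 807 (2.11). The UPR element TGACGTGG was found in the promoter windows of 2 of the 3, Sec24d and Sec23a, and in 0 of 9 for XBP1 targets and 0 of 8 for ATF6 targets. The Sec24d stretch, whose gene had the largest rise of all listed genes, is shown with the element in capitals.
Sec24d, chr3:123267458-123267489, plus strand: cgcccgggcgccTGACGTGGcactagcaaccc

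**Figure D5:**
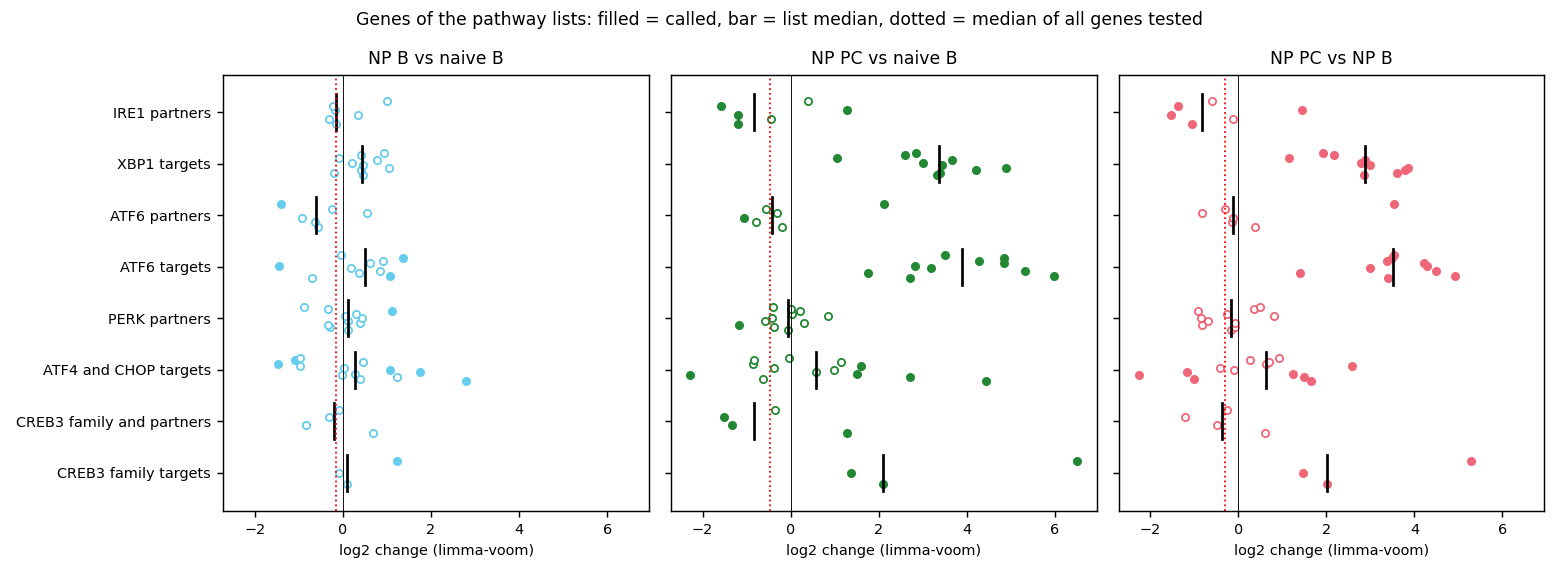
Log2 change of each tested gene of 8 lists around the 4 arms (limma-voom), in 3 comparisons of 3 libraries against 3, with filled points for called genes, a bar at the list median and a dotted line at the median of all genes tested. Targets of XBP1, ATF6 and the CREB3 family lie to the right in PCs, and the lists of PERK partners and of ATF4 and CHOP targets straddle 0.

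In order of mean TPM, which is corrected for transcript length, naive B cells had Xbp1 (119), Atf4 (80.4), Creb3 (72.6), Ddit3 (44.4), Atf6b (44.2), Ppp1r15a (42.8), Atf6 (14.4), Eif2ak3 (10.5), Ern1 (2.94) and Creb3l2 (2.61). Of these neighbours, Ddit3 with Atf6b, Atf6b with Ppp1r15a, Atf6 with Eif2ak3, and Ern1 with Creb3l2 overlapped between libraries. In NP+ B cells Xbp1 (156) was again highest and Creb3l2 (1.64) lowest, and Atf4, Atf6b, Ppp1r15a and Ddit3 formed a run of overlapping neighbours between 42.5 and 25.1. In PCs the order was Xbp1 (4174), Creb3 (174), Atf4 (122), Atf6b (90.8), Atf6 (59.0), Ppp1r15a (58.2), Creb3l2 (56.0), Ern1 (54.7), Ddit3 (32.8) and Eif2ak3 (7.29). Atf6, Ppp1r15a, Creb3l2 and Ern1 overlapped there from neighbour to neighbour, and Eif2ak3 was the lowest of the 10 genes.

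The genes whose pattern over the 9 libraries was most like a member's were sought among 7240 tested genes with a mean TPM of at least 10, by the root mean square difference of log2 (TPM + 0.5) after removing each gene's mean. Ell2, an elongation factor known for Ig mRNA processing, was nearest to Ern1 (0.18), followed by Ssr4 of the translocon (0.24). Ergic1 (0.15) and Lman1 (0.18), proteins of the ER to Golgi intermediate compartment, were nearest to Xbp1. The zinc transporter Slc30a7 (0.10) and Desi1 (0.12) were nearest to Atf6, and Apmap (0.09) and the COPII subunit Sec31a (0.12) to Atf6b. Creb3 had the closest match of all members, the Golgi stacking protein Gorasp2 (0.06), and then Sec31a (0.08). Creb3l2 had the poorest, Bcl2l11 (0.33), which encodes the pro-apoptotic protein BIM, and the autophagy protein Wipi1 (0.37). For the PERK arm these were Usp39 (0.10) and Nfyb (0.11) for Eif2ak3, Tmem38b (0.15) and A130010J15Rik (0.15) for Atf4, Tbc1d17 (0.13) and Gtpbp2 (0.15) for Ddit3, and Rab22a (0.14) and Mbd1 (0.15) for Ppp1r15a. With 3 groups many genes share a pattern, and these distances are descriptions without a test.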

How the data were processed

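The authors pseudoaligned single-end reads of SMART-Seq v4 and Nextera XT libraries with kallisto and deposited TPM values summed by gene symbol, in tables with and without Ig genes, together with log2 values made from them with voom. The submitters' processing notes name mm10, kallisto and limma. The transcript annotation and the sequencer of each library are not given in the sources used here. From the table without Ig genes, TPM went into voom with column sums as library sizes and was fitted with limma 3.58.1 in R 4.3.3 over all 9 libraries as 3 group means without a block. Changes are thus on the scale of log2 (TPM + 0.5) and understate those of low genes. The filter was a TPM of 1 or more in 3 or more libraries. Genes were called at a Benjamini-Hochberg adjusted p under 0.05 and a fold change over 2, the study's usual threshold. It used others for some displays, among them a log2 change of 0.5, the lower threshold here. Estimated counts were recovered from the deposited log2 values, in which a TPM of 0 stands for 0.5 counts. Reads are not independent molecules, and the floor of 3 counts covers counting error only. Ratios were compared by two-sided exact permutation tests. The script was tested on simulated data. No per-sample column was left unused.

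The members, lists and tests were chosen with earlier results of these data known. From each list up to 2 called genes that rose most and up to 2 that fell most in each comparison were named, with the paralogs of the members and the 2 genes nearest in pattern to each member. Bloc1s1, Hcfc1, Hspa5, Mbtps1, Mbtps2, Pdia6, Sec23a, Sec61b, Ssr1 and Zbtb8os, where named, fall outside this rule and were picked with their values known. The lower threshold, the CCACG core and the values with Ig genes kept on the deposited TPM scale were added after the data were seen. Coordinates are from GENCODE M21 and promoter windows from RefSeq (GRCm38.p6). The replicates may share mice across groups, and p-values measure the spread between these libraries.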

Additional observations from a re-analysis of the deposited data

How the results depend on the processing

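Each log2 change was recomputed under 21 alternatives, of which the deposited TPM scale with Ig genes kept was added after the data were seen, as was the lower threshold for counts. Ern1, Xbp1 and Creb3l2 were called higher in PCs in both comparisons under all 21, with log2 changes against naive B cells of 2.36 to 4.51, 3.44 to 5.61 and 2.54 to 4.69.

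In NP+ against naive B cells the count of called members was 1 with quantile normalization, 3 at the lower threshold and 0 to 1 when single libraries were left out. In PCs it was 5 to 6 against naive and 7 to 8 against NP+ B cells with single libraries left out, 7 and 8 with median-of-ratios scaling, 6 and 8 with quantile normalization, the deposited log2 values or estimated counts (all higher), 6 and 8 (Eif2ak3 lower) with an offset of 0.1 without weights, 5 (3 higher, 2 lower) and 4 (3 higher, 1 lower) with Ig genes kept and columns scaled to their sum, and 7 (3 higher, 4 lower) and 5 (3 higher, 2 lower) on the deposited TPM scale. The 4 lower ones were the PERK arm genes Eif2ak3, Atf4, Ddit3 and Ppp1r15a. On that scale 77.9% and 72.3% of all genes were called lower against naive and NP+ B cells, and 64.5% and 59.7% with scaled columns. The median log2 change of all genes against naive B cells was -1.85 on the deposited scale. With Ig genes kept and scaled columns, changes that reversed in PCs against naive B cells were Atf6b (-0.19), Atf4 (-0.62) and Ppp1r15a (-0.78), and against NP+ B cells Ddit3 (-0.78) and Ppp1r15a (-0.24). On the deposited scale those against naive B cells were Atf6b (-0.64), Atf4 (-1.07), Ppp1r15a (-1.23) and Creb3 (-0.42), and those against NP+ B cells were Atf6b (-0.052), Atf4 (-0.082), Ddit3 (-1.19), Ppp1r15a (-0.65) and Creb3 (-0.12). Against naive B cells Eif2ak3 was at 0.080 with quantile normalization and Ddit3 at 0.057 with median-of-ratios scaling. The cause was not tested beyond the change of scale. Between NP+ and naive B cells, leaving out single libraries gave log2 ratios of -0.0048 to 0.37 for Xbp1 to Ern1 and of -0.88 to 0.061 for Creb3l2 to Creb3.

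Over all genes tested, of 12324 with Ig genes kept 8494 (551 higher, 7943 lower) and 7775 (420 higher, 7355 lower) were called in PCs against naive and NP+ B cells, and on the deposited scale 9974 (373 higher, 9601 lower) and 9229 (320 higher, 8909 lower). Limiting the fit to the 7278 genes with a mean TPM of at least 10, 1179, 2965 and 2640 were called in the order of the report.

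Same-numbered libraries did not deviate together (correlations of -0.0749 to 0.0675 over 9 pairs, against -0.0865 to 0.0724 over 18 pairs of different number), so the numbers were not used as pairs. With the replicate block 0, 6 and 7 members were called.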
